A study of Mus musculus with 19 samples.

Results

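The transcription factors that pattern the heart formed the subject here: the homeobox genes Nkx2-5, Isl1 and Irx4, the T-box genes Tbx5, Tbx20, Tbx2, Tbx3 and Tbx18, and the basic helix-loop-helix genes Hand1 and Hand2. These 10 of 21000 protein-coding genes were taken by name. 5-hydroxymethylcytosine (5-hmC) is the oxidation product of 5-methylcytosine. It was profiled by hydroxymethylated DNA immunoprecipitation and sequencing (hMeDIP) in cardiomyocytes (CMCs) of C57BL/6J mice, with 2 replicates at each of 4 points. The study's methods give male mice as the source and name the strain only for the mice that had surgery. The points were embryos (E14.5), pups of 1 to 2 days (neonatal), mice of 2 months (adult), and adults that had carried a band on the aortic arch for 1 week (transverse aortic constriction, TAC), which puts the left ventricle under pressure load. E14.5 and neonatal CMCs came from digested ventricles with pre-plating to remove other cells, adult and TAC CMCs from perfused left ventricles with sedimentation, so age and the way of isolation cannot be told apart between these pairs of points. No group is labelled as sham-operated among the samples used here. Both preparations started from ventricles, and whether cells of the atria or the sinus node were carried over is not stated.

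For each gene the window was its span in mm10 with 20 kb on each side, since many of these genes are short, and the measure was the percent of the window's bases covered by the deposited peaks of each replicate. The 10 windows add up to 586 kb, of which 31.8% is gene span. Together they held 47 and 52 peaks in the E14.5 lists, 60 and 80 in the neonatal lists, 50 and 54 in the adult lists, and 45 and 43 in the TAC lists. Of these 431 peaks, 49.0% were 501 bp wide, the narrowest width, and the widest was 4611 bp. The lists give the position of a peak and not its height, so a covered base says that enrichment over input was called and not how strong it was.

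Nkx2-5 and the Hand factors act early in the formation of working myocardium and the ventricles, Tbx5 and Tbx20 activate chamber genes together with Nkx2-5 and GATA4, and Irx4 is a marker of ventricular myocardium. Tbx2 and Tbx3 repress the chamber program in the atrioventricular canal and the conduction system, Tbx18 marks the epicardium and the sinus horn, and Isl1 marks progenitors of the second heart field. 5-hmC is made by TET enzymes and in many tissues lies over the bodies and distal elements of genes in use, with little at start sites rich in CpG.

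Overlapping peaks of the 8 lists were merged into places. There were 156 places in the 10 windows, 71 of them in 1 list alone, 42 in 4 or more lists and 11 in 7 or 8. The 11 are in the windows of Tbx5 (6 places), Tbx20 (2), Irx4 (2) and Nkx2-5 (1). The shares in 7 lists (3.85%) and in 8 lists (3.21%) stand beside 2.69% and 1.65% of the 403570 places of the whole genome. Merging joins neighbouring peaks into wide places, so the 300 bases at the centre of a place are not under a peak in every list that holds it. To show sequence, 8 places were taken, those in most lists first and, among the 6 in 7 lists, those of genes with fewest taken, which left out 3 further places of Tbx5. The central 300 bases of 5 of the 8 are printed, those under a peak in at least 5 lists, from GRCm38 (the assembly of mm10), on the plus strand of the chromosome, with each CG in capitals, since CG is where 5-hmC is mostly found.

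Tbx5 32.6 kb downstream of the start, intron, chr5:119867163-119867462, under a peak in 7 lists: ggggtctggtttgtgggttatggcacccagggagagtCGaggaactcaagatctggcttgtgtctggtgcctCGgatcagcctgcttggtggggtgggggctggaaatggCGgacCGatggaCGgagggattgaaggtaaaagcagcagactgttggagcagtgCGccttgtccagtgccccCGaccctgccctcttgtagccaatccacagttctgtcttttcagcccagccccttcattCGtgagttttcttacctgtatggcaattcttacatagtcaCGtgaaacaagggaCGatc
Tbx5 55.4 kb downstream of the start, beyond the 3′ end of the gene, chr5:119889946-119890245, under a peak in 7 lists: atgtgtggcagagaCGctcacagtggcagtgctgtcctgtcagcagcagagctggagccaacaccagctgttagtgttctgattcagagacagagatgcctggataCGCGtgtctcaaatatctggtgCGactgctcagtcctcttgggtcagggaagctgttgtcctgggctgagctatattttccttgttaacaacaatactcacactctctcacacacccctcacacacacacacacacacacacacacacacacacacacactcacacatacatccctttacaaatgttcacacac
Tbx20 36.2 kb downstream of the start, intron, chr9:24737942-24738241, under a peak in 7 lists: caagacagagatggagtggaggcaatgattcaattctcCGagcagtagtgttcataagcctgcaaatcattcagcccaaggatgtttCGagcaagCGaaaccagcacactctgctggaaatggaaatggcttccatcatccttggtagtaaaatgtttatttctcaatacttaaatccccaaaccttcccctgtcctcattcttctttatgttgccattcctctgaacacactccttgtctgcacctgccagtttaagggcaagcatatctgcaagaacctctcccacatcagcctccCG
Irx4 3.0 kb upstream of the start, intergenic, chr13:73257363-73257662, under a peak in 5 lists: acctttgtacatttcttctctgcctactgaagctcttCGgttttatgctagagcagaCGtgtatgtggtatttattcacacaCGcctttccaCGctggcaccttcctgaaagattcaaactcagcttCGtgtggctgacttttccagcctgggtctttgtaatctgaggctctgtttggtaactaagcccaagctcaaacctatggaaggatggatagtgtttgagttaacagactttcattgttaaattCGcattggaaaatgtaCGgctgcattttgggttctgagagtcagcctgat
Irx4 6.9 kb downstream of the start, intron, chr13:73267216-73267515, under a peak in 5 lists: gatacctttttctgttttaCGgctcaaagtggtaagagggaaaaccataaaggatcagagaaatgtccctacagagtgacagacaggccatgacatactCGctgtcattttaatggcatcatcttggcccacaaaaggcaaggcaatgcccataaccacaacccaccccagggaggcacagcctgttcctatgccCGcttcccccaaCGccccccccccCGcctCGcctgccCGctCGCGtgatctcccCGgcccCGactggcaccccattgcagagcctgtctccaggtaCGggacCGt

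The 5 stretches hold 10, 4, 4, 7 and 13 CG in the order shown. The median over the members' 156 places was 4 CG in the central 300 bases (quartiles 2 and 7), and over all places of the genome 3 (quartiles 1 and 5). For contrast, the promoters of Nkx2-5 and Isl1 are shown from RefSeq (GRCm38, 300 bases around the start, on the strand of the gene), over which no list had a peak. Of the 10 genes, 6 were matched in the RefSeq promoter table by symbol.

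Nkx2-5 promoter, chr17:26841516-26841815, minus strand: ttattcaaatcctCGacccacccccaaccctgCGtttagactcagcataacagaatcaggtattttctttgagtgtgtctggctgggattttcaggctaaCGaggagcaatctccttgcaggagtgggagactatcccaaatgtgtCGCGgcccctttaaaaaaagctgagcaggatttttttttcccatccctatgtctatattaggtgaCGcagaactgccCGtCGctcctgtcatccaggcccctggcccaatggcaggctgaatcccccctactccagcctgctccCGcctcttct
Isl1 promoter, chr13:116309639-116309938, minus strand: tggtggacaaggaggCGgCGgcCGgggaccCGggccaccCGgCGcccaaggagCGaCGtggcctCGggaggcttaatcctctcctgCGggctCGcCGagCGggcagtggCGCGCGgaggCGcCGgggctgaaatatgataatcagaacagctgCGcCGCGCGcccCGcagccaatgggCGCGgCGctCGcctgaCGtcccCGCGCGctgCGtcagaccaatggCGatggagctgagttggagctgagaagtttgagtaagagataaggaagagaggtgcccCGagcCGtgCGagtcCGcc

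The Isl1 promoter holds 37 CG and that of Nkx2-5 holds 9. Short elements of cardiac factors were looked for on both strands in the central 300 bases of the 8 places taken, the 5 above and 3 more of Nkx2-5, Tbx5 and Tbx20, whose centres were under a peak in 2 or 3 lists. The GATA element AGATAA and the HAND E-box CATCTG each stood in 1 of the 8, both at the Tbx5 place centred 44.4 kb downstream. The TEAD element GGAATG stood in 1 of the 8, the Tbx20 stretch printed above. The T-box element AGGTGT and the NKX2-5 element TNAAGTG were in none of the 8. The shares of all places of the genome whose central 300 bases hold them were 15.8% for AGATAA, 21.1% for CATCTG, 17.99% for GGAATG, 16.2% for AGGTGT and 14.4% for TNAAGTG, and none of these matches overlapped another. The Isl1 promoter above holds 1 AGATAA.

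**Figure D1:**
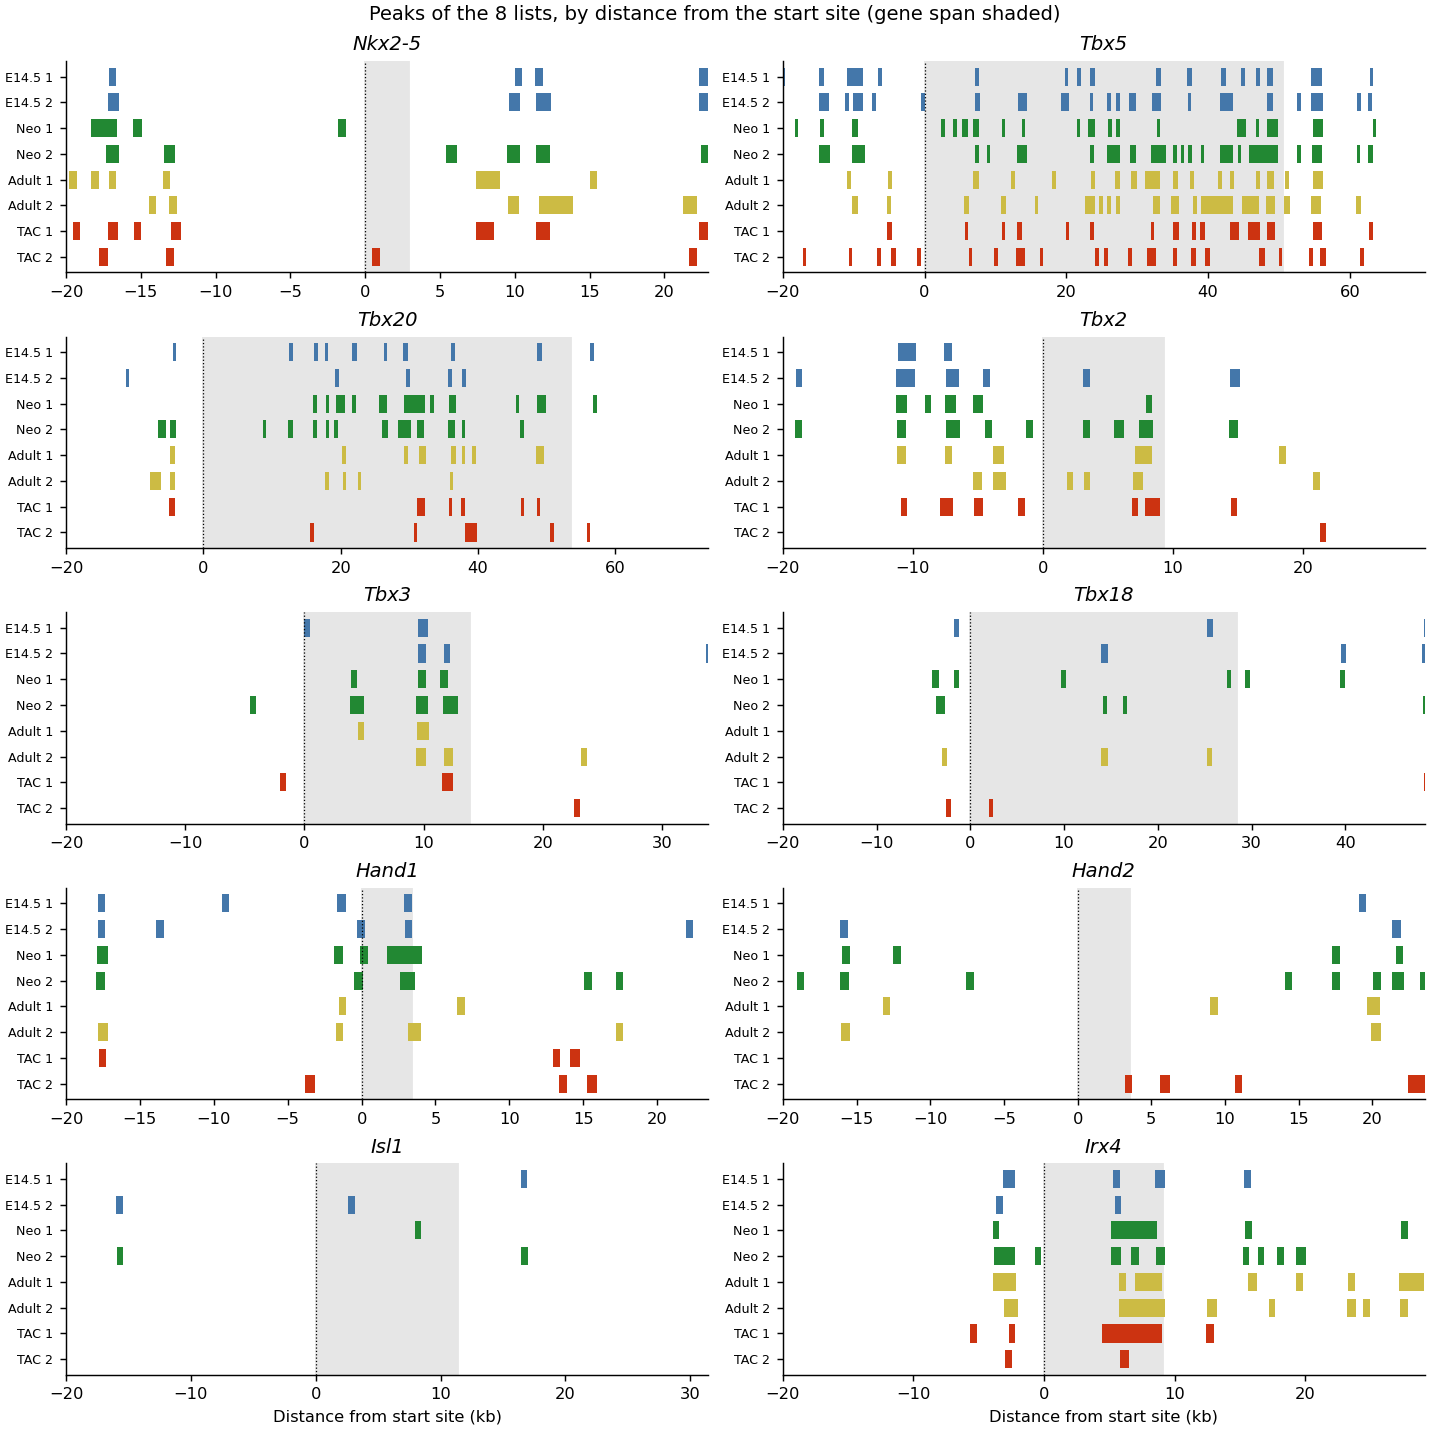
Peaks of the 8 lists in the windows of the 10 genes, by distance from the start site in kb (x axis, negative upstream in the direction of transcription) and by list (y axis, "Neo" for neonatal, 1 and 2 for the replicates), with the gene span shaded and the start site dotted. Tbx5 has peaks throughout in each list, Isl1 has none in the adult and TAC lists, and the spans of Nkx2-5 and Hand2 have a peak in TAC replicate 2 alone.

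Tbx5, the chamber factor mutated in Holt-Oram syndrome, had the highest coverage of the 10 genes in 7 lists, and Irx4 was above it in adult replicate 1. Its 90.6 kb window (chr5:119814663-119905218) was covered to 13.5% and 19.6% at E14.5, 15.5% and 25.4% in neonatal CMCs, 14.4% and 22.1% in adult CMCs and 13.4% and 15.1% after TAC. Replicate 2 was above replicate 1 at each point, and both neonatal values were above both TAC values, while the other points overlapped. Its mean of 17.4% over the lists was at percentile 96.7 of the 21000 windows. Irx4 followed with 9.70% (percentile 83.1), Nkx2-5 with 8.45% (78.4), Tbx2 with 7.52% (74.3), Tbx20 with 6.49% (68.7) and Hand1 with 5.53% (62.9). Hand2 had 3.96% (50.7), Tbx3 3.27% (44.4), Tbx18 2.002% (31.4) and Isl1 0.731% (14.6). Between neighbours in this order the ranges over the lists overlapped. The median over all windows was between 2.94% and 4.64% in the 8 lists.

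**Figure D2:**
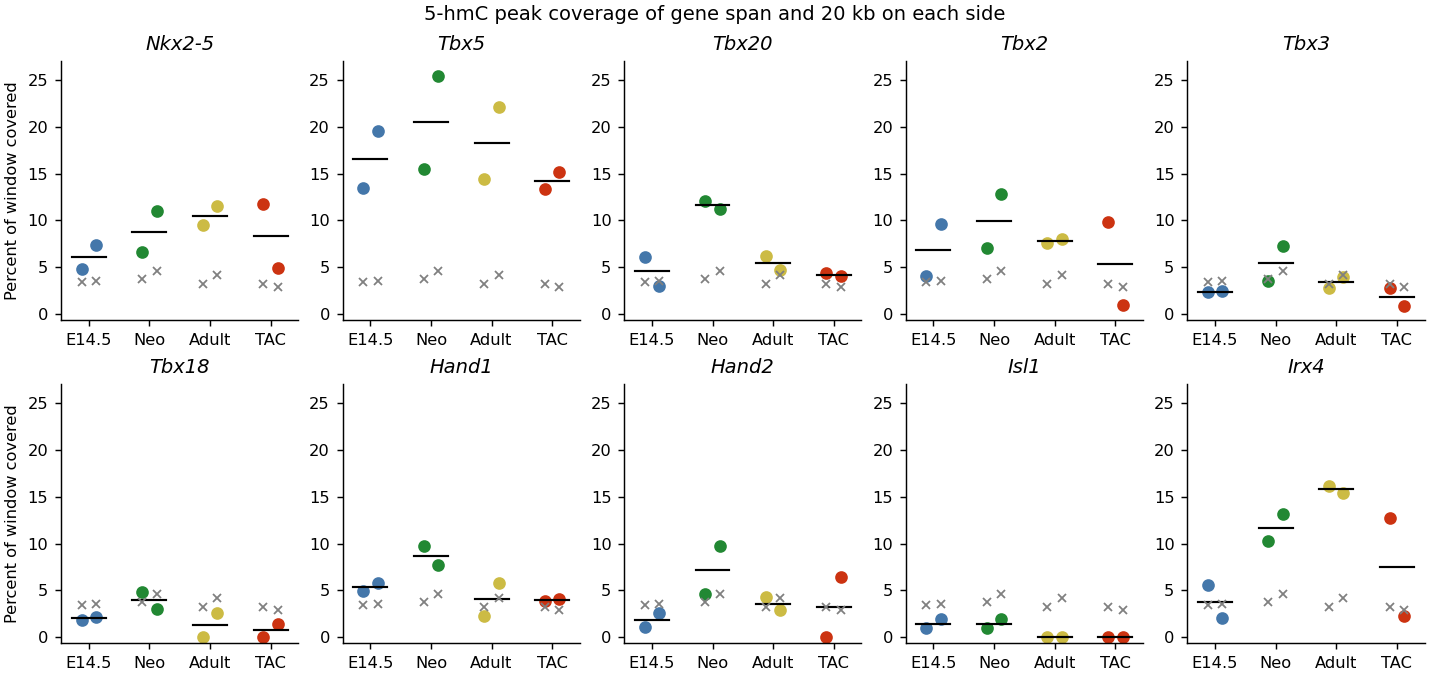
Percent of each gene's window covered by 5-hmC peaks (y axis) at the 4 points (x axis, "Neo" for neonatal). Dots are the replicates, replicate 1 on the left, lines are their means (n = 2), and grey crosses are the median of all protein-coding windows in the same list. Irx4 stood highest in the 2 adult lists (16.2% and 15.4%), Tbx20 in the 2 neonatal lists (12.1% and 11.2%).

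From E14.5 to neonatal CMCs, peaks covered more of the window in both neonatal replicates than in both E14.5 replicates at 6 of the 10 genes. These were Tbx20, Tbx3, Tbx18, Hand1, Hand2 and Irx4. No member was lower without overlap. Of all 19820 windows tested, 29% were higher without overlap and 7.05% lower. The comparison asks where 5-hmC lies before and after birth. The median log2 difference of percent covered (with 1 percent added) was 0.65 over the members and 0.20 over all windows. With each list divided by its own mean coverage, 4 members (Tbx20, Tbx3, Hand2 and Irx4) were higher and none lower, where the background turned to 16.8% higher and 21.6% lower. In a single random draw of the same number of peaks per list, 6 were again higher, beside 22.4% of all windows. Nkx2-5 and Tbx5 were then in place of Tbx20 and Tbx3. No other draw was made, so which genes changed places may hinge on the draw.

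Tbx20, which with Nkx2-5 and GATA4 activates chamber genes, was covered most in neonatal CMCs. Its 93.5 kb window (chr9:24700812-24794303) was covered to 6.15% and 2.99% at E14.5, 12.1% and 11.2% in neonatal CMCs, 6.25% and 4.69% in adult CMCs, and 4.38% and 4.09% after TAC. The neonatal replicates lay above the other 6 samples, while E14.5 overlapped with the adult and TAC points. The difference from E14.5 was 1.25 ± 0.37 on the log2 scale (SE, n = 2 per point, limma, unadjusted p = 0.0113, adjusted p = 0.702), where 6.75% of all windows had an unadjusted p under 0.05. The GB (gene body) was covered to 8.64% and 4.28% at E14.5 and to 20.3% and 16.1% in neonatal CMCs. No list had a peak within 1 kb of the Tbx20 start. In the single draw of 104215 peaks per list, Tbx20 overlapped between E14.5 and neonatal and between neonatal and adult CMCs.

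Hand1, a factor of the left ventricle, had its peaks on and beside its short gene (3.44 kb) at the earlier points. The span was covered to 14.6% and 21.1% at E14.5 and to 61.8% and 28.6% in neonatal CMCs, against 0% and 8.53% in adult CMCs and 0% in both TAC replicates. Both E14.5 and both neonatal values were above all 4 adult and TAC values. One place, over the 3′ part of the gene (chr11:57828080-57830422, centre in an exon 2.90 kb from the start), was in both E14.5, both neonatal and 1 adult list. The promoter, 1 kb on each side of the start, was covered to 25.04% in E14.5 replicate 2 and neonatal replicate 1 and to 31.6% in neonatal replicate 2, and held no peak in the other 5 lists. Over the whole window the levels were 4.92% and 5.77% at E14.5, 9.76% and 7.66% in neonatal CMCs, 2.31% and 5.84% in adult CMCs and 3.83% and 4.13% after TAC. A place 17.6 kb upstream (chr11:57849279-57850126) was in 6 lists, with both replicates of E14.5 and of the neonatal point.

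Hand2, its paralogue in the right ventricle and outflow tract, had no peak on its own span (chr8:57320983-57324517) in 7 of the 8 lists. The exception was TAC replicate 2, where 9.05% was covered. Its flanks carried the signal, and the window was covered to 1.15% and 2.60% at E14.5, 4.60% and 9.74% in neonatal CMCs, 4.30% and 2.89% in adult CMCs, and 0% and 6.40% after TAC. Neonatal CMCs were above E14.5 and above adult CMCs without overlap, and the TAC replicates lay on either side of the adult ones. Between the closest samples the margin to adult CMCs was 0.303 percentage points. The 1.15% of E14.5 replicate 1 was 1 peak of the narrowest width, so this margin is less than such a peak. A place 17.5 kb downstream of the start (chr8:57338251-57338752), in an intron of the neighbouring transcript Hdnr, was in the 2 neonatal lists alone. The gene has 5.83 CG per 100 bp, against 1.99 over its window.

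Irx4, a ventricular homeobox gene, had more coverage at both later ages than at E14.5. Its 49.1 kb window (chr13:73240497-73289620) was covered to 5.55% and 2.04% at E14.5, 10.3% and 13.1% in neonatal CMCs, 16.2% and 15.4% in adult CMCs, and 12.7% and 2.30% after TAC. The adult replicates were above the other 6 samples. Its GB was covered to 12.5% and 5.49%, then 38.9% and 21.5%, then 28.1% and 36.9%, then 50.5% and 6.90% at the 4 points in order, so that only replicate 2 of TAC was as low as E14.5. From E14.5 to adult CMCs the log2 difference was 1.91 ± 0.67 (SE, n = 2 per point, limma, unadjusted p = 0.0235, adjusted p = 0.198). Both places present in all 8 lists are shown above, and a place 23.5 kb downstream of the start (chr13:73283720-73284350) was in the 2 adult lists alone.

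From neonatal to adult CMCs 5 members were lower without overlap (Tbx20, Tbx18, Hand1, Hand2 and Isl1) and 1 was higher (Irx4). The background was 26.1% lower and 14.6% higher. The median log2 difference was -0.63 over the members and -0.16 over all windows. In the same single draw of 104215 peaks per list, Hand1 alone was lower and Nkx2-5 alone higher, beside 15.1% and 28.2% of all windows. Relative to the list mean, Tbx3 joined the lower members and Nkx2-5 the higher, beside 29.2% and 17.98% of all windows. By limma, 3 members had an unadjusted p under 0.05, as had 11.5% of all windows. The log2 difference ± SE of Isl1 was -1.27 ± 0.36 (unadjusted p = 0.00831, adjusted p = 0.317, limma). That of Tbx20 was -0.98 ± 0.37 (unadjusted p = 0.0322, adjusted p = 0.387, limma). That of Hand1 was -1.02 ± 0.41 (unadjusted p = 0.0406, adjusted p = 0.408, limma). Isl1 was at 0 in all adult and TAC lists. Its replicates at these points add no spread, and its SE was the smallest of the members here.

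Isl1 had the least 5-hmC. The window of this progenitor factor (chr13:116278270-116329688) was covered to 0.974% and 1.95% at E14.5, to the same 0.974% and 1.95% in neonatal CMCs, and had no peak in the 2 adult and 2 TAC lists. Its 6 peaks, all 501 bp wide, fell at 4 places, and no place was in both replicates of a point. The values therefore rest on 1 or 2 peaks per list, at the narrowest width the lists hold.

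Tbx18, a gene of the epicardium and sinus horn, was likewise low, with 1.83% and 2.22% at E14.5, 4.83% and 3.03% in neonatal CMCs, 0% and 2.57% in adult CMCs, and 0.0657% and 1.46% after TAC. The neonatal replicates were above the other 6 samples, by 0.460 percentage points over the closest adult replicate. Its 11 places included 1 shared by both E14.5 replicates and 1 by both neonatal replicates, and none shared by both adult or both TAC replicates.

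Nkx2-5, the homeobox gene that opens the cardiac program, had its peaks outside the gene. Its span (chr17:26838665-26841565, 2.90 kb, 6.45 CG per 100 bp) had no peak in 7 lists and was covered to 17.3% in TAC replicate 2. The flanks held the peaks, and the window was covered to 4.86% and 7.34% at E14.5, 6.67% and 10.96% in neonatal CMCs, 9.49% and 11.5% in adult CMCs, and 11.8% and 4.96% after TAC. Adult CMCs were above E14.5 without overlap and the other points overlapped. Its place in 7 lists is centred 17.4 kb upstream (chr17:26858001-26859923), and another 12.9 kb upstream (chr17:26853911-26855116) was in both adult, both TAC and 1 neonatal list and in no E14.5 list. A place 9.98 kb downstream of the start (chr17:26831055-26832118) was in both E14.5 lists, 1 neonatal and 1 adult list.

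From E14.5 to adult CMCs 4 members were higher without overlap (Nkx2-5, Tbx3, Hand2 and Irx4) and Isl1 was lower, with a background of 28.9% higher and 22.5% lower. Between the closest samples the margins were 2.15 percentage points at Nkx2-5, 0.340 at Tbx3, 0.296 at Hand2, 9.89 at Irx4 and 0.974 at Isl1. The median log2 difference was 0.27 over the members and 0.01 over all windows. Relative to the list mean, Nkx2-5, Tbx3 and Irx4 were higher and Tbx18, Hand1 and Isl1 lower, beside 21.2% and 34.4% of all windows. Isl1 again had the smallest unadjusted p, 0.00831 (adjusted 0.164), by limma, where 19.9% of all windows had one under 0.05. As above, its adult and TAC values of 0 add nothing to the spread behind this p. This comparison shares its samples with the other comparisons of E14.5 and of adult CMCs and adds no independent count.

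Tbx2 and Tbx3, the repressors of the chamber program, differed in where their peaks lay. Tbx2 (window chr11:85812615-85861948) was covered to 4.03% and 9.64% at E14.5, 7.10% and 12.9% in neonatal CMCs, 7.64% and 8.06% in adult CMCs, and 9.79% and 1.02% after TAC, with all points overlapping. Its upstream flank had 2 places in 6 lists each, 10.6 kb (chr11:85821291-85822835) and 7.13 kb upstream (chr11:85824710-85826250), both in introns of the neighbouring transcript 2610027K06Rik and both in the 2 E14.5 and 2 neonatal lists. A further place 3.35 kb upstream (chr11:85828743-85829782) was in the 2 adult lists alone.

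On the GB of Tbx2, coverage was 0% and 5.37% at E14.5, 5.37% and 24.9% in neonatal CMCs, 13.8% and 19.3% in adult CMCs and 18.01% and 0% after TAC, and adult CMCs were above E14.5 there without overlap. Tbx3 (window chr5:119650862-119704724) had 2.40% and 2.45% at E14.5, 3.60% and 7.24% in neonatal CMCs, 2.79% and 4.02% in adult CMCs and 2.75% and 0.930% after TAC. Its peaks lay mostly on the GB, where coverage was 9.02% and 8.22% at E14.5, 13.98% and 24.5% in neonatal CMCs, 10.8% and 11.99% in adult CMCs and 7.07% and 0% after TAC. The GB values of the 4 points did not overlap, in the order neonatal, adult, E14.5 and TAC, although the exact permutation test on gene spans called no member. A place in an exon 9.92 kb from the start (chr5:119680254-119681310) was in 6 lists and in neither TAC list, and another 12.1 kb from the start (chr5:119682222-119683739) was in 5 lists, TAC replicate 1 among them.

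After TAC 3 members were lower than in adult CMCs without overlap (Tbx20, Tbx3 and Irx4) and none was higher. The background was 25.5% lower and 7.26% higher. The median log2 difference was -0.35 over the members and -0.24 over all windows, and no member reached an unadjusted p under 0.05 (limma), which 7.87% of all windows did. TAC replicate 2 stood apart: 65.1% of its peaks in the 10 windows lay at a place that another list held, against 80.0% to 91.5% in the other 7 lists, and genome-wide the share was 58.8% against 82.1% to 87.0%. It also had the lowest mean coverage of all windows, 3.63%. Without it, TAC replicate 1 was below both adult replicates at Tbx5, Tbx20, Tbx3, Hand2 and Irx4 and above both at Nkx2-5 and Tbx2, with a background of 34.2% below and 18.6% above.

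Between the closest samples of the adult and TAC points, Tbx20 was lower by 0.310 percentage points, Tbx3 by 0.0427 and Irx4 by 2.74. With each list divided by its own mean coverage, Tbx3 alone was lower and no member higher, beside 12.5% and 19.04% of all windows. The peaks over the spans of Nkx2-5 and Hand2 were in TAC replicate 2 only and are not shared with any other list. Hand1 had a place 13.4 kb downstream of the start (chr11:57818255-57819204) in the 2 TAC lists alone.

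Over the 4 points together, no member passed the exact permutation test, in which the 8 samples are divided into pairs in every possible way (one-sided for a larger spread between points, smallest possible p = 0.00952). Adjusted over all windows, even that p would pass only if it were shared by a large part of them. The smallest exact permutation p-values were those of Hand1 (p = 0.0857, adjusted 0.524) and Tbx20 (p = 0.0952, adjusted 0.538), and Irx4 had p = 0.190. The other 7 had p of 0.2 or more. None of the 19820 windows passed after adjustment, with 8.5% at an unadjusted p under 0.05. In limma none of them passed in any of the 4 comparisons either, with 1338, 2285, 1559 and 3951 at an unadjusted p under 0.05 from E14.5 to neonatal, neonatal to adult, adult to TAC and E14.5 to adult. For 2 samples against 2 the exact two-sided test cannot go below 0.333. Since the lists hold no read counts, no interval for counting error is given. The highest mean was neonatal for 7 members, adult for Nkx2-5 and Irx4, and E14.5 for Isl1 (whose neonatal values were equal), while over all windows it was neonatal in 34.4%, adult in 32.0%, E14.5 in 25.2% and TAC in 8.48%.

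Taking the 10 genes as 1 region, the GB was covered more than the flanks in each list. It was covered to 7.80% and 8.88% at E14.5, 16.5% and 18.7% in neonatal CMCs, 10.9% and 14.02% in adult CMCs, and 10.7% and 7.61% after TAC. The upstream 20 kb had 2.77% to 8.52% and the downstream 20 kb 3.02% to 6.93%. Tbx5 and Tbx20 make up 50556 and 53492 of the 186120 bases of gene span, so the pooled values weigh them most. The spans of Nkx2-5 and Hand2 held a peak in TAC replicate 2 alone. No value of this split over all protein-coding genes is given, so it is not shown to be particular to these genes. By peak centre, the GB held 46.7% ± 6.2 of the E14.5 peaks, 51.5% ± 7.4 of the neonatal peaks, 48.1% ± 2.6 of the adult and 47.8% ± 1.5 of the TAC peaks (SD, n = 2), while gene spans made up 31.8% of the bases. The points differed in this share by less than the spread between the E14.5 or the neonatal replicates. By covered bases, however, both E14.5 lists (47.7% and 44.8%) were below the other 6 (51.7% to 62.8%), with means of 46.2% ± 2.0 at E14.5, 57.9% ± 7.0 in neonatal CMCs, 52.8% ± 1.2 in adult CMCs and 53.9% ± 3.1 after TAC (SD, n = 2). Of the 156 places, 62 were centred on a GB, 46 upstream and 48 downstream. By the transcript under the centre, neighbours included, 71 lay in an intron, 14 in an exon and 5 from 1 kb before to 100 bp after a start.

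**Figure D3:**
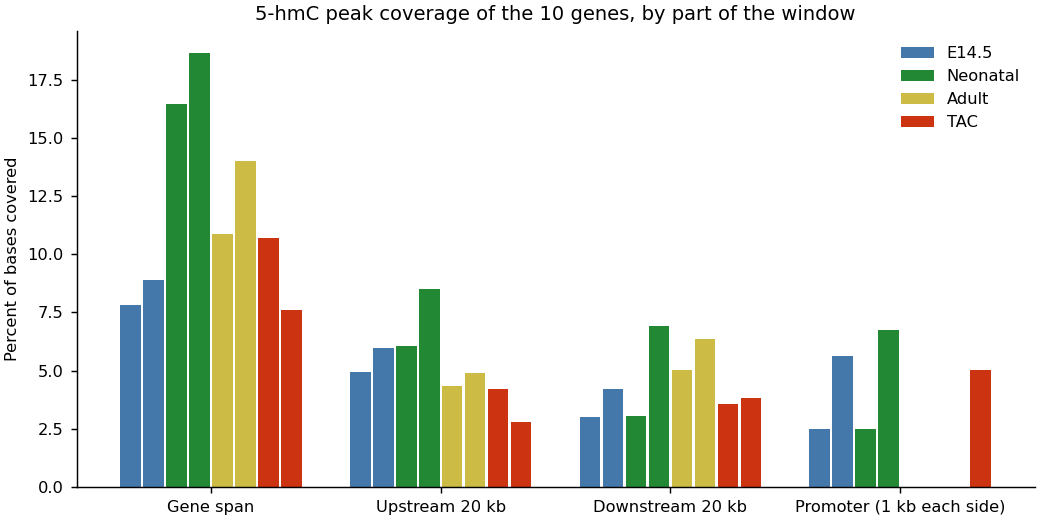
Percent of bases covered by peaks over the 10 genes together (y axis), by part of the window (x axis), with 1 bar per list, replicate 1 left of replicate 2, colored by point. The gene spans are at 7.61% to 18.7%, the flanks at 2.77% to 8.52%, and the promoters are at 0 in both adult lists and TAC replicate 1.

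The start sites were largely without 5-hmC peaks. No promoter of the 10 genes held a peak in the 2 adult lists and in TAC replicate 1, where 17.99% to 20.7% of all protein-coding promoters held one. In the other lists 1 to 3 of the 10 promoters held one, beside 15.4% to 22.03% of all promoters, those of Tbx3 in E14.5 replicate 1, Tbx5 and Hand1 in E14.5 replicate 2, Hand1 in neonatal replicate 1, Tbx2, Hand1 and Irx4 in neonatal replicate 2, and Nkx2-5 and Tbx5 in TAC replicate 2. Tbx20, Tbx18, Hand2 and Isl1 had none in any list, as had 46.7% of all promoters. None of the 10 had a peak at its promoter in 4 or more lists, against 16.8% of all promoters. CpG density within 1 kb of the start ranged from 1.65 per 100 bp at Tbx5 to 8.95 at Tbx2.

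Places held by both replicates numbered 24 at E14.5, 34 in neonatal CMCs, 23 in adult CMCs and 14 after TAC, that is 15.4%, 21.8%, 14.7% and 8.97% of the 156, beside 14.1%, 15.7%, 11.01% and 6.88% of all places of the genome. When peaks had to share 50% of both their lengths, the numbers were 18, 16, 15 and 3, so that the neonatal point was no longer highest. Tbx5 had 10 at E14.5, 10 in neonatal CMCs, 10 in adult CMCs and 7 after TAC. Tbx20 had 2, 6, 3 and 2 in the same order, Hand2 had 0, 4, 1 and 0, and Nkx2-5 had 4, 1, 1 and 2. Places in both replicates of 1 point, of E14.5 and neonatal, or of adult and TAC, and in no other list, numbered 7, or 4.49% against 3.94% of all places.

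Tbx5 holds 3 of these 7. One, 14.1 kb upstream (chr5:119819737-119821327, intergenic), was in the 2 E14.5 and 2 neonatal lists, a kind that made up 1.02% of all places. Another, 4.62 kb upstream (chr5:119829407-119830681, in an intron of the neighbouring gene Gm5563), was in the 2 adult and 2 TAC lists, a kind that made up 0.146% of all places. The third, 51.1 kb downstream of the start and just beyond the 3′ end (chr5:119885383-119886162), was in the 2 adult lists (0.906% of all places). The upstream flank of Tbx5 as a whole was covered to 18.9% and 21.9% at E14.5, 9.66% and 17.2% in neonatal CMCs, 5.67% and 7.12% in adult CMCs and 3.17% and 13.9% after TAC, with E14.5 above the other points. Its GB was covered to 12.6% and 20.02% at E14.5, 20.2% and 32.5% in neonatal CMCs, 19.5% and 31.1% in adult CMCs, and 18.7% and 17.6% after TAC, with neonatal above E14.5 by a margin of 0.136 percentage points.

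**Figure D4:**
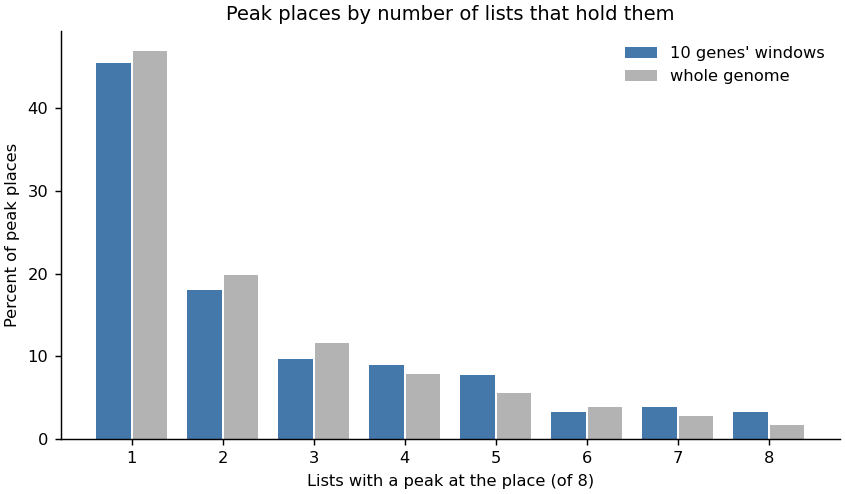
Percent of peak places (y axis) by the number of lists that hold them (x axis, 1 to 8), for the 156 places of the 10 windows (blue) and the 403570 places of the genome (grey). Places in 1 list make up 45.5% and 47.0%, and places in 8 lists 3.21% and 1.65%.

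Genes that act with these factors were read in the same way and against the same background. Of 12 partner genes (GATA, MEF2, SRF and their cofactors), 9 were higher without overlap in neonatal CMCs than at E14.5 and none lower. Over all windows these shares were 29% and 7.05%. In adult CMCs 8 were lower than in neonatal CMCs, and 5 were lower after TAC, beside 26.1% and 25.5% of all windows. The partner genes' median log2 differences were 0.76, -0.47 and -0.56 in these comparisons, and 0.20, -0.16 and -0.24 over all windows. Hopx, a homeodomain cofactor of SRF, was highest, with 24.9% and 10.96% at E14.5, 35.4% and 29.8% in neonatal CMCs, 26.2% and 19.2% in adult CMCs and 24.3% and 8.70% after TAC. Hey2, a Notch target that keeps atrial genes silent in the ventricle, was lowest, with a mean of 2.37%.

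Of 12 target genes, 3 were higher and 2 lower in neonatal CMCs than at E14.5, beside 29% and 7.05% of all windows. In adult CMCs 5 were lower than in neonatal CMCs, beside 26.1% of all windows. The target genes' median log2 differences were 0.14 and -0.62. Kcnd2, a potassium channel, was lowest (mean 1.30%). Bmp10, a growth factor of trabeculating myocardium and later of the right atrium, was covered to 12.7% and 12.8% at E14.5, 7.48% and 11.5% in neonatal CMCs, 1.10% in both adult replicates, and 2.14% and 0% after TAC. It was named after its values were seen.

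Among 11 other T-box genes, 10 of which passed the filter on low values, 2 were higher in neonatal CMCs than at E14.5, beside 29% of all windows. From neonatal to adult CMCs 3 of them were higher and 3 lower. Tbx10 was highest with a mean of 11.4%, while Tbx22 was at 0 in all 8 lists. Of 12 other Iroquois and Nkx genes 7 were lower and 4 higher in adult than in neonatal CMCs, beside 26.1% and 14.6% of all windows. In adult CMCs 6 were lower and 4 higher than at E14.5. Irx3 was at the top (mean 11.4%) and Nkx2-1 at the bottom (0.872%). Of 8 genes of upstream signals 5 were lower in adult CMCs than at E14.5, and 3 were lower and 1 higher in adult than in neonatal CMCs. From E14.5 to adult CMCs 22.5% of all windows were lower and 28.9% higher. Wnt11 had 13.6% and Shh 0.249% on average. No gene of these lists passed limma in any comparison.

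The labelled cell type was read against marker genes in the same measure. By flow cytometry the study found most, but not all, cells positive for sarcomeric actinin. It also reported no intragenic 5-hmC peaks at markers such as Vim, Col1a2 and Tcf21. The windows read here add 20 kb on each side. The 7 CMC markers had a median of 17.6% over the lists, with Ttn highest (22.2%) and Ryr2 lowest (10.3%). Fibroblast markers had 1.76%, epicardial markers 2.51%, endothelial markers 4.22% and smooth muscle and pericyte markers 6.36%. The highest of these, Cspg4 (16.3%), Pecam1 (15.8%) and Col1a1 (10.5%), were above Ryr2, and the lowest were Col3a1 (0.0801%), Emcn (1.06%) and Rgs5 (1.33%). Upk3b (6.27%) and Aldh1a2 (2.27%) were the highest and lowest epicardial markers. Summed over the list, CMC markers ranged from 56.7 to 195 percentage points, fibroblast markers from 14.7 to 29.0 and epicardial markers from 6.67 to 21.7. From neonatal to adult CMCs, where 26.1% of all windows were lower and 14.6% higher, Tbx18 and Isl1 were lower. So were 2 of 8 fibroblast markers, 2 of 6 endothelial, 2 of 4 epicardial and 3 of 4 smooth muscle and pericyte markers, with none higher. Of the 7 CMC markers, 5 were lower. Col3a1 was at 0 in 7 of the 8 lists. Their part in the members' values was not tested.

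The 2 windows most alike over the 8 lists were given by Pearson's r among 17016 windows with a mean of at least 1%, as a description across lists that differ in number of peaks. For Tbx5 these were Irak4 (r = 0.986) and Nol12 (0.979), for Irx4 Lrrc8a and Bcam (both 0.989), and for Nkx2-5 Ptgis (0.988) and Mtrex (0.987). Lrrc8a had 11.2% and 9.10% at E14.5, 18.1% and 22.3% in neonatal CMCs, 22.9% and 23.5% in adult CMCs, and 20.8% and 8.99% after TAC, with the lowest values at E14.5 and in TAC replicate 2, as for Irx4.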

How the data were processed

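The data are hMeDIP libraries of mouse CMCs, with 1 peak list for each of 8 samples (4 points, 2 replicates). Per the study's methods, the authors aligned reads to mm10 with BWA 0.7.4-r385, ran Picard on duplicates, filtered on mapping quality and then called peaks in each replicate over its input (HOMER, histone mode). The deposited lists hold positions. The score column, which the authors deposited as 1 in every row, carries no height and was not used. Headers of both E14.5 lists, neonatal replicate 1 and adult replicate 1 scale the control to the precipitated library, those of the other 4 the reverse. Scaling is thus partly tied to the point in comparisons with E14.5 or TAC, whose lists are each of a single kind. Peaks numbered 104215 to 153637 per list. Read depth is not in the lists, and a deeper library can give more peaks.

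From the positions, the percent covered of 21000 protein-coding windows (curated RefSeq transcripts, GRCm38, span with 20 kb on each side) was computed in Python 3.11.15 with numpy 2.4.6. Windows with a peak in at least 2 of the 8 lists were tested (19820). Tests were the exact permutation test over pairs, and limma 3.58.1 with trend in R 4.3.3 on log2(percent + 1) with all 8 samples, both Benjamini-Hochberg adjusted over all windows at 0.05. Fold values on this scale understate changes of low windows. A difference without overlap means that both replicates of 1 point lay above both of the other. Coverage code was checked against bedtools 2.31.1 on simulated lists. All members, the highest and lowest gene of each list, and places in 7 or 8 lists, in 1 point or pair of points, or at a start site were to be named. One gene that this rule names is not reported here. The members and lists were chosen with earlier results of these data known. The replicates are biological per the study's methods, 2 at each point. The limma p-values rest on 1 spread per window, taken within points over all 8 samples and drawn towards the trend over all windows. They are thus no measure of the spread between the replicates of the 2 points compared. The exact permutation p-values over the 4 points use all 8 samples as well. Replicate numbers do not pair the samples across points. The input and sh-control samples, which have no peak list here, were not analysed.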

Additional observations from a re-analysis of the deposited data

How the results depend on the processing

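The count of members differing over the 4 points was 0 under every alternative, limma's F test and each replicate left out included. The permutation test could hardly have given another count, since its smallest p of 0.00952 is adjusted over 19820 windows. Limma called 0 windows in each of the 4 comparisons under the replicate block, a pseudocount of 0.1, flanks of 50 kb, scaling to the list mean and each replicate left out. On gene spans without flanks it called 85 (E14.5 to neonatal), 224 (neonatal to adult), 137 (adult to TAC) and 280 (E14.5 to adult), and without the filter on low values 57, 87, 16 and 106, no member among them. The cause was not tested. Members without overlap from E14.5 to neonatal numbered 6, and 3 by number of peaks per 100 kb. Flanks of 50 kb gave 4, with Nkx2-5 added and Tbx3, Tbx18 and Hand1 lost. Equal numbers of peaks, from a single random draw, gave 6, with Nkx2-5 and Tbx5 for Tbx20 and Tbx3. From neonatal to adult they numbered 6, but 3 on gene spans and 2 with equal numbers of peaks. From adult to TAC they numbered 3, but 5 with flanks of 50 kb and 1 by list mean, equal numbers of peaks or peaks per 100 kb. From E14.5 to adult they numbered 5, and 3 by peaks per 100 kb. With 1 replicate left out, which compares 2 samples with 1 and separates more windows of any kind, the counts were 6 to 9, 7 to 9, 5 to 7 and 7 to 8 in that order. Of all windows, 39.2% to 53.2% were then higher and 13.2% to 25.6% lower from E14.5 to neonatal. The shares were 20% to 35.3% and 33% to 47% from neonatal to adult. They were 12.4% to 22% and 33.2% to 51.9% from adult to TAC, and 34.2% to 46.8% and 27.9% to 37.6% from E14.5 to adult. Chosen after seeing the data, the lists with equal header scaling gave 6 for E14.5 to neonatal, 8 for E14.5 to adult and 6 for adult to TAC. These counts also compare 2 lists with 1, and no share of all windows is given for them, so they show no stronger difference. Of 552 alternative values of the members' log2 differences, 34 took the other sign and none was called. The replicate block, leaving out the filter, and dropping a replicate of a point not compared cannot change a difference. A difference of 0, as at Isl1, cannot take the other sign either. The 34 of 552 therefore understates how often the sign turned where it could. Without flanks, Nkx2-5 and Hand2 gave no value, since their spans had a peak in 1 list alone. Places in both replicates at an overlap of 50% of both peaks numbered 18 at E14.5, 16 in neonatal CMCs, 15 in adult CMCs and 3 after TAC. By base pair the share on gene spans was 46.2% at E14.5, 57.9% in neonatal CMCs, 52.8% in adult CMCs and 53.9% after TAC. Replicate numbers did not pair the samples (correlations of deviations of -0.0762 to 0.289 between points). Peak lists without read counts leave depth unknown, and a window with 1 narrow peak, as at Isl1, rests on that call.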
